A study of Homo sapiens with 18 samples.

Results

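The subtelomeric CpGs described here lay within 2 Mb of an end of chromosomes 1 to 20 in the GRCh37 (hg19) assembly. For chromosomes 13, 14 and 15 the q end alone was taken. CpGs entered when reduced representation bisulfite sequencing (RRBS) covered them with at least 20 reads in each of 3 libraries, which left 121146 of the 946029 CpGs that met this minimum on the same chromosomes. They were spread over 37 chromosome ends, and 227858 CpGs of these ends had some coverage in all 3 libraries. The DNA came from 3 untreated human cancer cell lines, HCT15 (colorectal carcinoma), DU145 and PC3 (both prostate cancer), with 1 RRBS library each. DNA of each line was also captured once with each of 5 kits built on a methyl-CpG binding domain (MBD), namely MethylMagnet, MethylCollector, MethylCollector Ultra, MethylCap and MethylMiner, which gave 15 MBD-seq libraries. RRBS differences between lines thus have no replicate, and the kits of a line are repeated captures of the same DNA. Whether RRBS used the same DNA preparation as the captures was not given in the sources used here.

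The subtelomere is the stretch of a chromosome arm next to the telomere, the array of short hexamer repeats that caps the DNA. Human subtelomeres are rich in genes, in CpG-dense sequence and in duplicated segments shared between chromosomes. Most CpGs of the genome are methylated in differentiated cells, whereas CpG islands at gene starts are mostly free of methylation, and in cancer islands can gain methylation while other sequence loses it. RRBS cuts DNA with MspI, an enzyme that recognises CCGG, so it reads CpGs near such sites base by base. MBD capture instead pulls down whole fragments by their methylated CpGs, and its read-out is the depth of fragments along the genome. An RRBS level between none and full methylation cannot tell apart a mix of cells, a difference between alleles and partial methylation of each copy.

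The sequences that follow carry some of the largest differences between lines, taken from the 4351 windows of 300 bp with at least 8 member CpGs, and show what an RRBS level refers to. They are read from the GRCh37 plus strand in lower case, and capitals mark the CpGs measured in all 3 RRBS libraries. The windows were chosen by their difference, so their levels are a description. The 17q window, chr17:79958701-79959000, lies in an intron of ASPSCR1, a tether of glucose transporter vesicles. Its 10 CpGs, 2 of them inside CCGG, averaged 10.0% methylation in HCT15, 98.4% in DU145 and 96.9% in PC3. HCT15 thus stood apart from both prostate lines. CpGs inside CCGG read near the middle of the scale among unmethylated neighbours, as given below.
17q window: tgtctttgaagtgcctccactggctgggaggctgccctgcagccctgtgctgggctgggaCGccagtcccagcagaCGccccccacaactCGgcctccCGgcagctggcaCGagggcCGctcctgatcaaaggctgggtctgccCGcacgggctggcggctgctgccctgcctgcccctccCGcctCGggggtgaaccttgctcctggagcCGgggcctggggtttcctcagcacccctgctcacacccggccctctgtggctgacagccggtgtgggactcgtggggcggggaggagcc
The 10q window, chr10:133795501-133795800, begins 30 bp from BNIP3, which encodes a mitochondrial protein of cell death and mitophagy and is transcribed away from the window. Its 8 CpGs averaged 98.5% in HCT15, 0.641% in DU145 and 0.329% in PC3, a wide fall for both prostate lines.
10q window: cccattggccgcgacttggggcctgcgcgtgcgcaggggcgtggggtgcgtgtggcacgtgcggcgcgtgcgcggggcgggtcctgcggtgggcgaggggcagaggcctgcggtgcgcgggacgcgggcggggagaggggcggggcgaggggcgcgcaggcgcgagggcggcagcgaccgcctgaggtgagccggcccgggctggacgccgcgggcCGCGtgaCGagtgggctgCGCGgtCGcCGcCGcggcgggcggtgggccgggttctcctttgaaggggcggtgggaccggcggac
The 16q window, chr16:88701001-88701300, lies outside genes, 2629 bp from ZC3H18 and at an offset of -3830 bp from the start of IL17C, the gene of an epithelial cytokine. Its 22 CpGs, 3 of them inside CCGG, averaged 9.26% in HCT15, 92.0% in DU145 and 98.3% in PC3.
16q window: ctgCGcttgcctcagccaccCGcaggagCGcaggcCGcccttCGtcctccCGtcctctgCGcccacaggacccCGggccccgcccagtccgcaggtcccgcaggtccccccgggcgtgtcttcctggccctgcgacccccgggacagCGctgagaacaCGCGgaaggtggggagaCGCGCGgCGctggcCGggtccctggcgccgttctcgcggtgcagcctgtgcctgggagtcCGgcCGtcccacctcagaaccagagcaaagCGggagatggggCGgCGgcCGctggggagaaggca
A wide gain of PC3 over DU145 was in a window of 9p, chr9:1050301-1050600. This window lies in an exon of DMRT2, a developmental transcription factor. Its 10 CpGs, 2 of them inside CCGG, averaged 11.2% in HCT15, 11.6% in DU145 and 98.3% in PC3.
The last stretch, chr4:190942937-190943236 of 4q, was chosen after its values were seen, because it lies in the window of 1000 bp with the most MBD-seq depth in 8 of 15 libraries. In 5 others the adjoining window had the most. Here capitals mark all 37 CpGs of the reference.
4q stretch: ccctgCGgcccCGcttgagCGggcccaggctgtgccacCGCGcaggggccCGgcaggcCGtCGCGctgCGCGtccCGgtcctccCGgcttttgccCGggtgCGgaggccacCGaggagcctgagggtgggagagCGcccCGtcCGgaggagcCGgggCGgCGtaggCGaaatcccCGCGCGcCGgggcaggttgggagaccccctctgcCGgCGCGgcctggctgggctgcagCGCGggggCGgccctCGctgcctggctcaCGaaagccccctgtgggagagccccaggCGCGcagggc

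The median coverage of the members was 40 reads in HCT15, 69 in DU145 and 46 in PC3, against 36, 66 and 47 over all CpGs that met the minimum. For 84 members the coverage exceeded 10 times the median of a file, most often on 17q with 17 of them. The MBD-seq libraries held 10040 to 7344098 fragments, least in the MethylMagnet library of DU145 and most in the MethylMiner library of HCT15. At the shallow end a window of 300 bp often had no fragment, and a depth of 0 there was not distinguishable from a low depth. The MethylMiner libraries differed little in depth between methylated and unmethylated CpGs, as shown further on, so results that rest on them are also given without them. Nothing in these data tests the identity of the cell lines beyond such comparisons.

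The place of a CpG relative to the MspI site moved with its level in all 3 libraries, a comparison added after the data were seen. Of the members, 35104 (29.0%) lay inside CCGG itself. They averaged 79.8% methylation in HCT15, 81.7% in DU145 and 77.9% in PC3. The 86042 other members averaged 56.5%, 55.2% and 50.3%. The gap was clearest where the neighbours were free of methylation. In 1463 windows of 300 bp whose other CpGs averaged at most 5% in every line, 18480 such CpGs averaged 1.04%, 1.22% and 1.34%, and the 3755 CpGs inside CCGG averaged 51.5%, 52.2% and 52.2%. In 1222 windows whose other CpGs averaged at least 95%, the CpGs inside CCGG averaged 96.1%, 97.6% and 97.1%. A CpG inside CCGG therefore read near the middle of the scale among unmethylated neighbours and near the top among methylated ones. The cause was not tested. Values without the CpGs inside CCGG are given beside the main RRBS results.

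Subtelomeric CpGs were on average more methylated than the other CpGs in every line. The members averaged 63.3% in HCT15 (SD over CpGs 39.2), 62.9% in DU145 (SD 40.7) and 58.3% in PC3 (SD 40.6). The other CpGs averaged 58.2%, 57.7% and 52.3%, a gap of 5.07, 5.20 and 5.94 percentage points. Without the CpGs inside CCGG the gap was 5.61, 5.83 and 6.38 points. The medians lay higher, at 84.0% in HCT15, 85.6% in DU145 and 72.2% in PC3. At least 80% methylation was reached by 52.9%, 52.8% and 46.2% of the members, and at most 20% was read at 24.5%, 26.7% and 29.6%. Taking the lines together, 37.3% of the members were at least 80% methylated in all 3 lines, against 31.2% of the other CpGs. Conversely 21.2% were at most 20% in all 3 lines, against 26.1%. With 1 library per line none of these differences has a test, and CpGs within a read or an island are not independent.

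The gap between ends and other sequence was widest in moderately CpG-dense sequence. Among CpGs with 1 to 9 reference CpGs within 100 bp, ends and other sequence differed by at most 1.75 points in any line and class. At 10 to 14 CpGs the ends were higher by 7.13 points in HCT15, 9.14 in DU145 and 9.40 in PC3. At 15 to 19 the gap was widest. The 16433 members of that class averaged 64.4%, 62.3% and 59.0%, and the 112702 other CpGs 49.1%, 43.8% and 41.6%. At 20 or more it narrowed to 6.07, 5.24 and 5.02 points. The gap over all classes was 5.14, 5.46 and 6.02 points after the members were weighted to the densities of the other CpGs. Without CpGs inside CCGG, the gap at 15 to 19 CpGs was 17.2, 20.8 and 19.5 points. The lines also changed order along the density scale. At 1 to 4 CpGs the members of DU145 were highest (85.5%, against 78.2% in HCT15 and 76.0% in PC3), and at 20 or more those of HCT15 were (36.9%, against 27.3% in both others).

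**Figure D1:**
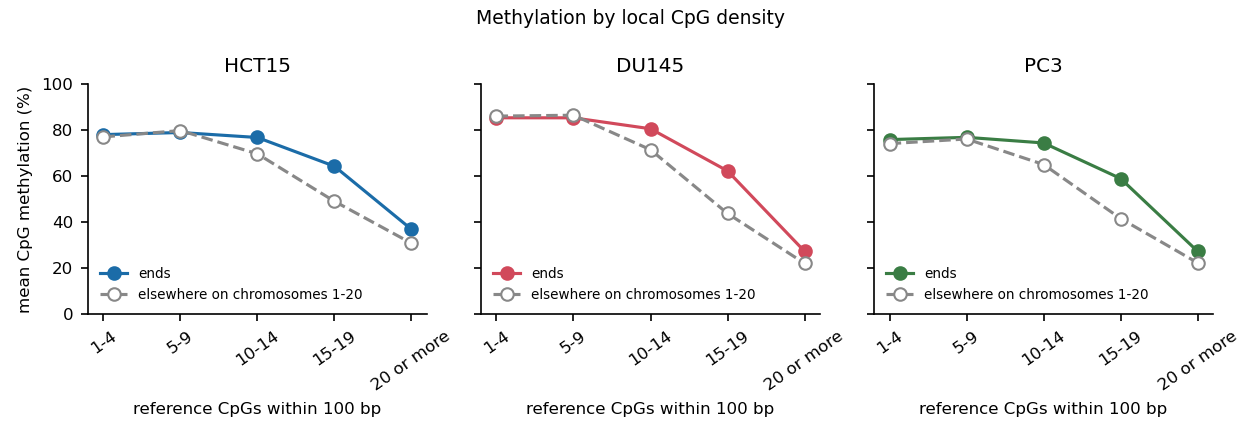
Mean RRBS methylation (percent) of subtelomeric CpGs (filled points) and of the other CpGs of chromosomes 1 to 20 (open points) by the number of reference CpGs within 100 bp, 1 panel per cell line. The curves lie together up to 9 CpGs and are farthest apart at 15 to 19, where the ends were higher by 15.3 points in HCT15, 18.5 in DU145 and 17.4 in PC3.

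The gap also differed between parts of genes. Promoters, meaning sequence within 500 bp of a protein-coding gene start, differed from promoters elsewhere by less than 1 point in every line, with means of 26.3% in HCT15, 18.4% in DU145 and 18.6% in PC3. Exonic CpGs carried the largest gap. They averaged 70.8%, 69.2% and 66.8%, which was 8.59, 10.9 and 11.1 points above exons elsewhere. Intronic CpGs were higher by 3.87, 4.76 and 5.64 points. Outside protein-coding genes the direction turned, with the ends lower by 1.00, 3.23 and 1.27 points, where DU145 averaged 71.8% in the ends and 75.0% elsewhere. Without CpGs inside CCGG the exonic gap was 10.1, 12.7 and 12.8 points, and the difference outside genes was -1.91, -4.23 and -2.55. The promoter difference was then 1.81 points in HCT15, -0.07 in DU145 and 0.06 in PC3. The means of the ends were thus higher in gene bodies, close at gene starts and lower between genes.

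Within the ends the level changed little with distance from 250 kb on, and it dipped at 50 to 100 kb from the end of the assembly. The 511 members of the outermost 50 kb, which came from 15 ends, averaged 63.4% in HCT15, 60.1% in DU145 and 56.3% in PC3. The lowest means were at 50 to 100 kb, with 59.9%, 55.5% and 52.1% over 1046 CpGs. Without CpGs inside CCGG they were 52.7%, 45.7% and 43.4% there, against 56.9%, 55.6% and 50.5% at 1500 to 2000 kb. From 250 kb on the means stayed within 61.9 to 64.0% in HCT15 and DU145 and within 57.6 to 59.3% in PC3. Levels fell farther in, from 64.5%, 66.1% and 57.4% at 2000 to 3000 kb to 56.2%, 55.3% and 50.6% beyond 20000 kb. The limit of 2 Mb did not coincide with a step of the same size in every line. The 5791 CpGs of the last 100 kb inside it averaged 68.7%, 66.9% and 61.9%, and the 5102 of the next 100 kb 63.7%, 65.5% and 60.1%. The coverage minimum sat on a slope. Members whose lowest coverage was 20 or 21 averaged 71.1%, 70.7% and 64.9%, above the mean of all members, and CpGs just outside, at 18 or 19, averaged 71.8%, 72.4% and 66.5%.

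**Figure D2:**
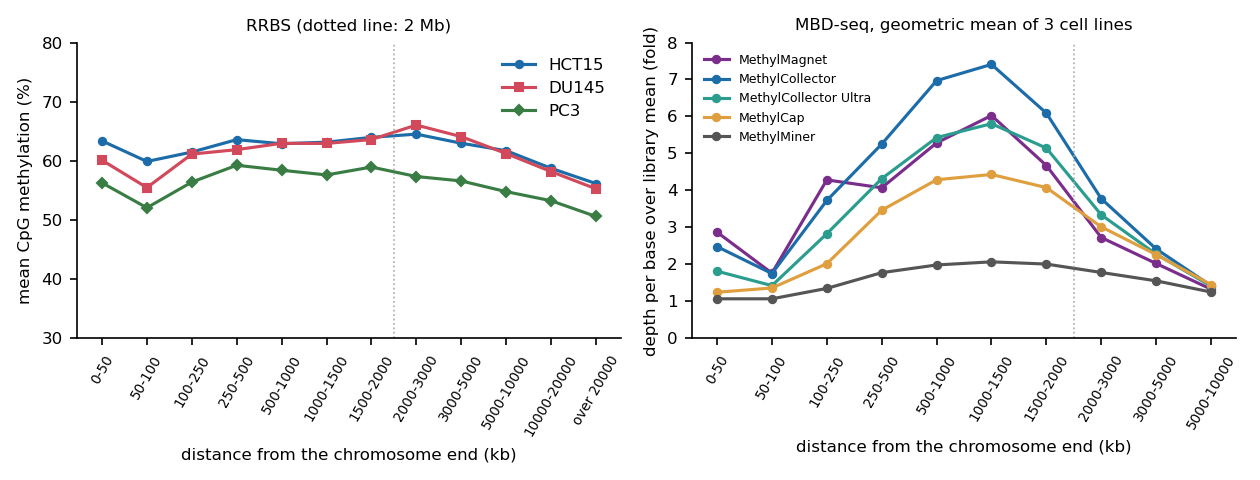
Left, mean RRBS methylation (percent) by distance from the chromosome end (kb) in each cell line. Right, MBD-seq depth per base over the library mean (fold, geometric mean of 3 cell lines) for each kit, with a dotted line at 2 Mb in both panels. Methylation stays between 52.1% and 64.0% inside the ends, and the depth of MethylCollector peaks at 7.41-fold at 1000 to 1500 kb.

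The outermost measured CpGs of the ends were mostly but not uniformly methylated. In the outermost 300 bp window with a member, the 10 CpGs of 2q averaged 11.0% in HCT15, 11.5% in DU145 and 11.1% in PC3, although the window lay 168237 bases from the end. On 5p the 15 CpGs of the outermost window, 12321 bases from the end, averaged 98.3%, 97.9% and 99.1%. On 2p, 10747 bases from the end, 6 CpGs averaged 50.8% in HCT15, 98.6% in DU145 and 98.1% in PC3, so HCT15 was the low line. On 6q, 2 CpGs averaged 32.9%, 92.1% and 30.2%, and DU145 was the high line. The widest range was at the single CpG of 16q, with 100% in DU145 and 5.56% in PC3.

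PC3 was the least methylated line in most ends. Its mean was the lowest of the lines in 33 of 37 ends, below HCT15 in 35 and below DU145 in 34. With ends of 1 Mb PC3 was the lowest in 27. DU145 was below HCT15 in 17 of 37. CpG by CpG, a change of at least 30 percentage points was called. PC3 was lower than HCT15 at 14452 members (11.9%, against 12% of all CpGs) and higher at 5090 (4.20%, against 3.72%). PC3 was lower than DU145 at 9.78% of the members (10.4% of all) and higher at 3.61% (3.4% of all). DU145 was lower than HCT15 at 8.28% (7.91% of all) and higher at 6.47% (6.18% of all). The shares lay near the background in every direction, and 24.1% of the members were called in some pair, against 23.7% of all CpGs. Without CpGs inside CCGG the shares of members were 14.0% for PC3 below HCT15 and 10.1% for DU145 below HCT15, against 13.9% and 9.51% of all such CpGs.

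Single ends ranged widely. The lowest mean of HCT15 and DU145 was on 20p, with 48.6% in HCT15 (SD 41.1 over 1604 CpGs) and 46.4% in DU145, and PC3 was at 38.9% there. The next lowest was 3q, where the lines averaged 49.8%, 49.9% and 49.2% over 1993 CpGs and hardly differed. The end 17q was the lowest but these in HCT15, at 55.8%, and DU145 was at 58.6% and PC3 at 56.6%. The highest means of HCT15 were on 2p (76.1%), 10q (74.4%) and 8p (73.9%). Those of DU145 were on 8p (76.3%), 13q (76.3%) and 4q (76.3%), and those of PC3 on 13q (72.2%), 7q (66.6%) and 12q (66.5%). The end 13q was thus high in all lines, with 73.6% in HCT15. Across the 37 ends the means of DU145 and HCT15 had a Pearson r of 0.85, whereas PC3 had 0.53 with HCT15 and 0.46 with DU145. The mean of an end fell with its share of CpGs that have 15 or more neighbours, with r of -0.53 in HCT15, -0.71 in DU145 and -0.52 in PC3. These correlations are over ends that share libraries and reference sequence and are given as a description.

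PC3 departed most on ends with few measured CpGs. On 3p, with 97 CpGs, HCT15 averaged 70.6%, DU145 75.2% and PC3 38.8%, a fall of PC3 by 31.8 points from HCT15 and by 36.4 from DU145. On 11q, with 1213 CpGs, the means were 63.8%, 66.1% and 43.0%, and on 4q, with 406 CpGs, 70.4%, 76.3% and 52.1%. The end 8p followed, with 73.9%, 76.3% and 56.1% over 643 CpGs. Without CpGs inside CCGG the differences of PC3 from HCT15 were -35.4 points on 3p, -24.5 on 11q, -20.2 on 4q and -19.5 on 8p. The 6 ends with fewer than 1000 CpGs had a median difference of PC3 from HCT15 of -16.1 points, and the 16 ends with 3000 or more CpGs one of -3.55. PC3 was above HCT15 in 2 ends, 17q by 0.85 and 8q by 0.56 points. DU145 stood lowest on 9p, where HCT15 averaged 69.3%, DU145 51.4% and PC3 57.8% over 444 CpGs, a fall of DU145 by 17.9 points from HCT15. It was also lower on 6p, by 8.48 points, and on 19q, by 7.46. Its largest gains over HCT15 were 5.85 points on 4q and 4.61 on 3p.

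**Figure D3:**
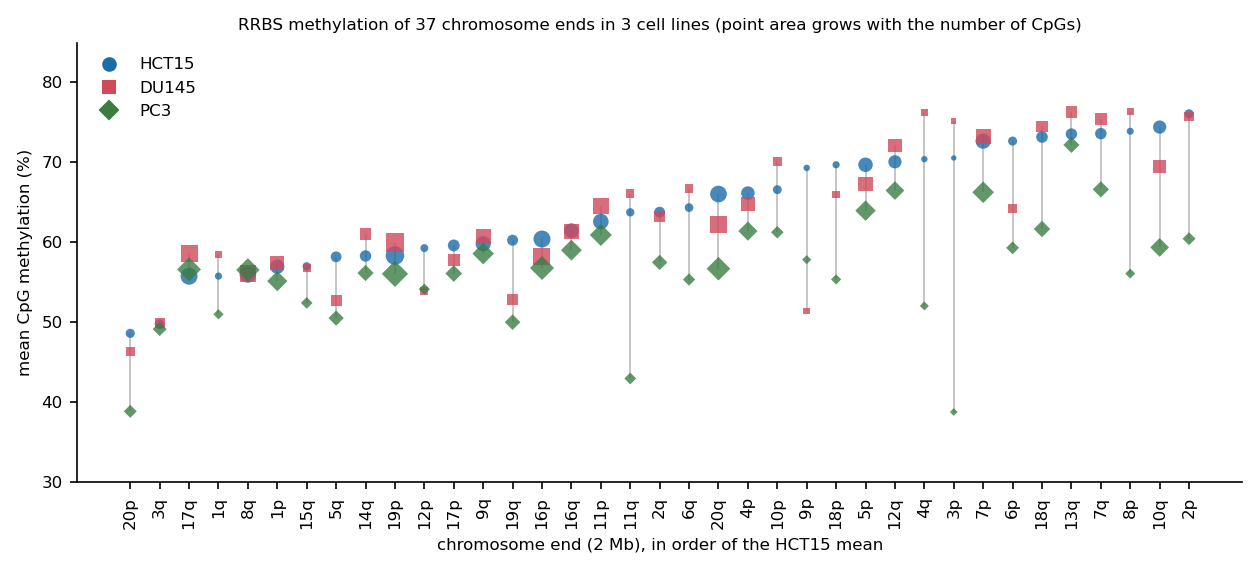
Mean RRBS methylation (percent) of each of the 37 chromosome ends in HCT15 (circles), DU145 (squares) and PC3 (diamonds), ordered by HCT15, with point area growing with the number of CpGs and a grey line spanning the lines. PC3 is lowest in 33 ends, and the longest lines are on small ends such as 3p, where PC3 averaged 38.8% and DU145 75.2%.

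Coverage also differed between ends. The median RRBS coverage of an end over the median of its library was 2.07 on 8q, 1.78 on 1q and 1.65 on 1p in PC3, and 0.565 on 8p. In DU145 it was 1.77 on 8p, and in HCT15 it was 1.43 on that end. The part of coverage in the methylation differences of these ends was not tested. On 8q, where PC3 had the most relative coverage, its methylation mean was 56.5% beside 56.0% in HCT15 and 56.1% in DU145.

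Promoters changed far more often downwards from HCT15 than upwards. Of 1183 protein-coding genes with a start in the ends, 809 had at least 5 member CpGs within 500 bp. Of these, 490 averaged at most 20% in all lines, 32 averaged at least 80% in all lines, and 147 differed by at least 30 points in some pair. DU145 was lower than HCT15 at 114 promoters (14.1%, against 10.9% of all 10226 promoters measured) and higher at 6 (0.742%, against 0.909%). PC3 was lower than HCT15 at 113 (14.0%, against 10.8%) and higher at 7 (0.865%, against 1.21%). PC3 and DU145 differed at 16 promoters in each direction (1.98%, against 2.79% higher and 2.96% lower in PC3). Without CpGs inside CCGG, 781 promoters were measured, and DU145 was lower than HCT15 at 15.4% (12.0% of all) and PC3 at 14.9% (11.7% of all). A fall of 30 points needs at least 30% in HCT15, so by this rule only promoters methylated in that line could be called lower. The median promoter of the ends stood at 13.0% in HCT15.

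The widest falls from HCT15 were at promoters methylated throughout in that line. BNIP3 on 10q averaged 97.2% in HCT15 (SD 3.35 over 36 CpGs), 7.67% in DU145 and 9.17% in PC3. Without CpGs inside CCGG BNIP3 read 97.2%, 0.759% and 1.70%. SLC22A31 on 16q, a member of the organic ion transporter family, averaged 96.4%, 9.46% and 11.8%, and SIRPA on 20p, an inhibitory receptor of myeloid cells that binds CD47, averaged 94.6%, 8.54% and 9.24%. ADAM8 on 10q, a membrane metalloprotease, averaged 94.4%, 9.97% and 8.55%, and PXDN on 2p, a peroxidase of the extracellular matrix, averaged 95.1%, 11.6% and 9.65%. Both prostate lines were low at each of these 5 promoters.

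Other promoters set a single line apart. RNF212 on 4p, a gene of meiotic recombination, averaged 93.9% in HCT15, 8.99% in DU145 and 80.5% in PC3. C1QTNF12 on 1p, a secreted adipokine gene, averaged 93.8%, 36.0% and 91.3%, and the gene ENSG00000273047 on 20q averaged 95.05%, 19.96% and 96.7%, so DU145 was low in all 3 cases. NAPRT on 8q, an enzyme of NAD synthesis from nicotinic acid, was the reverse case for PC3, with 11.1% in HCT15, 11.5% in DU145 and 95.7% in PC3 over 40 CpGs, or 4.34%, 4.11% and 95.4% without CpGs inside CCGG. CYBA on 16q, a subunit of the NADPH oxidase, averaged 21.8%, 45.5% and 95.3%. The promoters low in PC3 beside DU145 were TRIM58 on 1q, a ubiquitin ligase of erythroid cells (45.8% in HCT15, 91.3% in DU145 and 19.4% in PC3), EEF1D on 8q, a translation elongation factor (79.9%, 98.0% and 45.7%), the zinc finger gene ZNF132 on 19q (92.6%, 86.7% and 36.6%) and IQSEC3 on 12p, a synaptic exchange factor (82.4%, 73.5% and 26.5%).

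Few promoters gained methylation over HCT15. SLC26A1 on 4p, an anion exchanger, averaged 24.02% in HCT15, 98.6% in DU145 and 83.8% in PC3 over 10 CpGs, with an SD of 32.1 in PC3. ZNF814 on 19q averaged 19.3%, 67.9% and 50.6%, and FAM240C on 2q 57.7%, 97.3% and 90.02%. Each of these gains was larger than the SD over CpGs of the HCT15 promoter, although CpGs are not replicates of a line.

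Grouped by function, developmental, neuronal, tumour-related and 19q zinc finger lists covered 80 of the 809 promoters measured in the ends. They held 48 of the 147 promoters with a range of at least 30 points between the lines (32.7%), and the housekeeping list held none. The lists were written with earlier results of these data known, so their counts are a description. They are read beside the 809 promoters of the ends, of which 18.2% had such a range (15.8% of all promoters), and whose medians were 13.0% in HCT15, 12.6% in DU145 and 12.8% in PC3. Over CpGs outside CCGG alone the medians of the ends were 3.00%, 2.69% and 2.93%, and 157 of 781 promoters had such a range. Among developmental transcription factors, 12 of 21 promoters measured had such a range, 8 lower in DU145 than in HCT15 and 10 lower in PC3, and the list's medians were 88.5%, 36.4% and 27.4%. Outside CCGG 12 of 20 had it, with medians of 87.9%, 26.6% and 20.4%. DMRT3 on 9p, a determinant of neuronal fate, averaged 95.7% in HCT15, 15.7% in DU145 and 27.9% in PC3. SALL3 on 18q, a zinc finger regulator of development, averaged 96.4%, 38.4% and 27.4%. NKX6-2 on 10q, a homeobox regulator of oligodendrocytes, averaged 98.5%, 69.6% and 30.5%. DMRT2 went the other way, with 20.2%, 36.4% and 96.8% over 5 CpGs. FOXC1 and FOXQ1, forkhead genes of 6p, stayed at 8.96 to 13.6% in all lines. FOXC1 had 0.634%, 2.48% and 1.73% at CpGs outside CCGG, and FOXQ1 3.19%, 2.91% and 4.90%.

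Among neuronal and channel genes, 10 of 16 promoters had a range of at least 30 points, with 9 lower in DU145 and 8 lower in PC3 than in HCT15, and the medians were 91.2%, 33.4% and 29.3%. Outside CCGG it was 10 of 15, with medians of 91.2%, 20.9% and 16.0%. CACNA1H on 16p, a T-type calcium channel, averaged 93.9%, 37.6% and 11.1%, VIPR2 on 7q, a receptor of vasoactive intestinal peptide, 96.3%, 17.3% and 35.6%, and NTSR1 on 20q, the neurotensin receptor, 90.9%, 21.9% and 17.3% over 73 CpGs. CACNA1B on 9q differed from these, with 93.2% in HCT15, 51.3% in DU145 and 94.1% in PC3. DRD4 on 11p, a dopamine receptor, averaged at least 96.4% in every line.

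Of 17 genes known from tumour methylation or tumour suppression, 10 had a range of at least 30 points, all 10 lower in PC3 and 8 lower in DU145 than in HCT15. Their medians were 64.3% in HCT15, 20.7% in DU145 and 23.03% in PC3. At CpGs outside CCGG 11 of 17 had the range, with medians of 58.4%, 9.11% and 15.3%. CHL1 on 3p, a cell adhesion molecule, averaged 94.9%, 19.4% and 13.7%. ADARB2 on 10p, an RNA-editing family member, averaged 92.6%, 75.4% and 23.03%, and JAM3 on 11q, a junctional adhesion molecule, 81.1%, 49.9% and 17.7%. SCGB3A1 on 5q, a secreted protein often methylated in cancer, averaged 94.3%, 49.4% and 32.1%. HIC1 on 17p, a transcriptional repressor, averaged 73.7%, 19.3% and 18.9%, and TERT on 5p, the catalytic subunit of telomerase, 74.6%, 20.7% and 44.5%. AXIN1, a scaffold of Wnt signalling, and GAS6, a growth factor, averaged at most 13.6% in every line.

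The list of the zinc finger cluster at the end of 19q holds mostly genes of DNA-binding proteins, many of them KRAB repressors. It also includes SCAN-type genes (PEG3, ZSCAN1 and ZSCAN22) and USP29, a ubiquitin-specific protease of the same cluster. Of its 26 promoters 16 had a range of at least 30 points, 13 lower in DU145 and 13 lower in PC3 than in HCT15, with medians of 52.4%, 16.5% and 19.9%. Without USP29 it was 16 of 25. At CpGs outside CCGG 17 of 26 had the range, and the medians were 47.1%, 4.96% and 11.0%. ZNF773 averaged 89.6%, 9.48% and 9.38%, ZNF549 92.7%, 14.9% and 18.9%, and ZNF671 97.5%, 25.1% and 32.1%. PEG3 and ZIM2 share a start region and the same 6 CpGs, which averaged 95.5% in HCT15, 53.8% in DU145 and 58.4% in PC3. ZIK1 and ZNF416 likewise share 8 CpGs, so the promoters are not all separate measurements.

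Of the terminal and multicopy families 6 of the 18 genes with a start in the ends could be measured, and 2 had a range of at least 30 points. TUBB8B on 18p averaged 94.95%, 38.9% and 72.4%, and LMF1 on 16p 43.9%, 19.9% and 11.3%. FRG1 on 4q, the gene named for its place in the facioscapulohumeral dystrophy region, averaged 18.99%, 20.6% and 16.9%. A single alpha-globin gene of the 16p end was measured, HBQ1, with 89.7% in HCT15, 41.2% in DU145 and 43.8% in PC3. None of the 24 housekeeping promoters had a range of 30 points, the widest being 9.93 at PRPF8, a splicing factor. Their medians were 14.3%, 14.5% and 14.5%. At CpGs outside CCGG none of 22 had the range, and the medians were 1.99%, 2.52% and 3.10%. SDHA on 5p, of the respiratory chain, stayed between 8.09 and 8.68% over 70 CpGs, and had 0.872%, 0.768% and 0.693% over the 60 CpGs outside CCGG.

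Some MBD-seq libraries held the same fragments, a comparison added after the data were seen. Among fragments of the ends that overlapped no other of their library, 15.1% of the 3809 in the MethylMagnet library of HCT15 had the same first and last base as a fragment of another library. For 10.9% the other library was of another cell line, and the largest overlap, 255 fragments, was with the MethylCollector library of HCT15 (6.69% and 2.16% of the respective libraries). In the other 14 libraries 0.0904 to 3.42% of such fragments recurred elsewhere. The cause was not tested, and the main tests are also given without HCT15 or without MethylMagnet.

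In MBD-seq the ends were enriched with every kit, far more so with 4 kits than with MethylMiner. The ends hold 2.49% of the reference bases that are not N and 5.42% of the CpGs. The fold is the share of a library's depth in the ends over their share of bases. With MethylCollector the folds of HCT15, DU145 and PC3 were 6.16, 6.56 and 6.02, and with MethylMagnet they were 5.29, 6.04 and 3.91. MethylCollector Ultra gave 4.97, 5.62 and 4.46, and MethylCap 4.10, 3.81 and 3.803. MethylMiner gave 1.80, 2.01 and 1.93, so its 3 libraries lay below all others. Per CpG of the reference the folds were 1.75 to 3.02 for the 4 kits, and 0.829, 0.927 and 0.887 for MethylMiner, that is, fewer fragments than the CpG content of the ends would give. The kits differed beyond the spread between lines, which serve as the replicates of a kit. Kits accounted for 94.7% of the variation in log2 fold, and permuting kits within the lines gave an exact p of 0.000347. Leaving MethylMiner out lowered this to 71.3%, with an exact permutation p of 0.00868, so the other 4 kits also differed among themselves. Leaving HCT15 out gave 92.7% and an exact permutation p of 0.0167, where the smallest possible p is 0.00833.

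**Figure D4:**
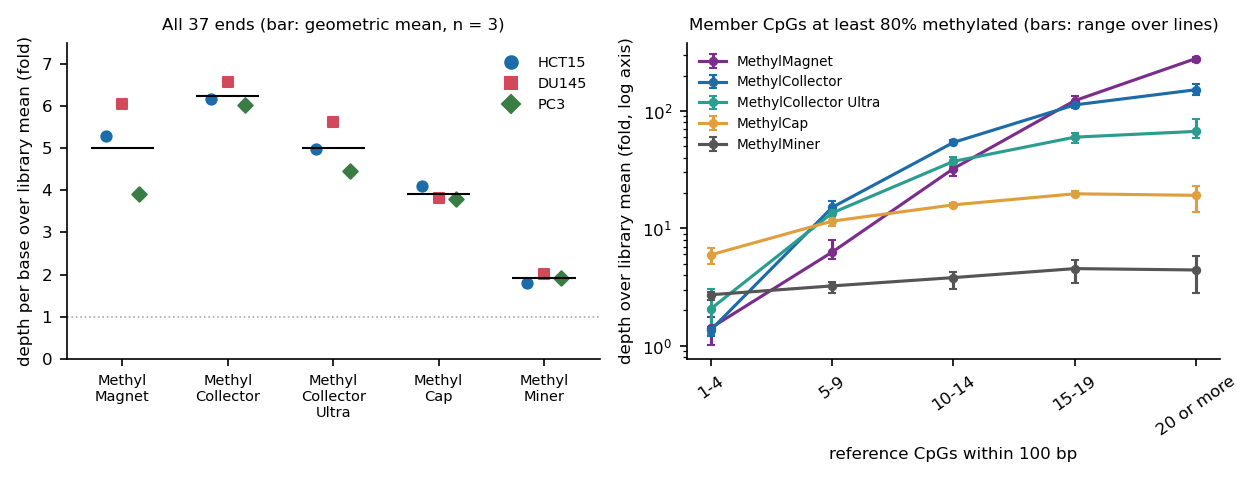
Left, MBD-seq depth per base in the 37 ends over the library mean (fold) for each kit and cell line, with a bar at the geometric mean of 3 lines and a dotted line at 1. Right, fold depth (log axis) at subtelomeric CpGs at least 80% methylated by the number of reference CpGs within 100 bp, with bars for the range over lines. MethylMiner lies at 1.80 to 2.01-fold on the left and stays below 6-fold on the right, where MethylMagnet reaches 264 to 290-fold.

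Differences between lines were small beside those between kits. DU145 had the highest fold with 4 of 5 kits, and PC3 the lowest with 4 of 5. The exceptions were MethylCap, where HCT15 was highest, and MethylMiner, where HCT15 was lowest. Lines accounted for 2.39% of the variation, with an exact p of 0.0525 when lines were permuted within kits. When MethylMiner was left out they accounted for 15.9%, with an exact permutation p of 0.0324. As the captures of a line share its DNA, this test measures the spread between captures.

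The enrichment went only in part with CpG content along the ends. With MethylCollector the geometric mean fold was 2.48 in the outermost 50 kb, 1.75 at 50 to 100 kb, 7.41 at 1000 to 1500 kb and 3.78 at 2000 to 3000 kb. MethylCap ran from 1.25 in the outermost 50 kb to 4.43 at 1000 to 1500 kb, and MethylMiner from 1.07 to 2.07. The reference CpG content was 13.6 per kb at 50 to 100 kb and 22.5 per kb at 1000 to 1500 kb. It was 18.0 per kb both in the outermost 50 kb and at 2000 to 3000 kb, where the folds were higher, with 3.02 for MethylCap. Within the ends, depth and CpG content were both lowest at 50 to 100 kb with MethylMagnet and both MethylCollector kits.

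The mean over lines put the same ends at the extremes with every kit, but the top place rested on PC3. The end 8q had the highest mean fold with every kit, 16.8 with MethylCollector, 16.3 with MethylMagnet, 12.4 with MethylCollector Ultra, 8.42 with MethylCap and 3.59 with MethylMiner. It was the highest end in 5 of 5 PC3 libraries, where its relative RRBS coverage was 2.07, and in 0 of 5 of HCT15 and 0 of 5 of DU145. In those lines 19p, 16p, 7p or 5p was highest, as with MethylCollector in HCT15, at 16.9-fold on 19p beside 12.1 on 8q. In the mean 8q was followed by 19p or 7p, except with MethylMiner, where 20q came next at 3.13. The end 3p was lowest with every kit, between 0.0981-fold with MethylCap and 0.513-fold with MethylMiner, and 9p was next with 0.575 to 1.13-fold. In single libraries 3p was lowest in 14 of 15. Across the 37 ends log2 fold and log2 CpGs per kb had a Pearson r of 0.87 with MethylMiner and of 0.90 to 0.96 with the others, and the slope was 0.92 with MethylMiner and 1.89 to 2.36 with the others. The ends share libraries and reference sequence, so the correlation is a description. It says that 4 kits weighted CpG-rich ends more than in proportion to their CpGs and that MethylMiner did so about in proportion.

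At each end the kits and the lines were tested by the same exact permutations, adjusted over the 37 ends. The depth of 31 of 37 ends (83.8%) differed between kits at an adjusted p under the threshold of 0.05. The 6 others were 1q, 3p, 11q, 15q, 18p and 20p, all with at most 14.7 CpGs per kb. The ends 4q, 6p, 9p and 12p also lay below this content and were called. Without MethylMiner 17 ends were called, all among the 31. Between lines 23 of 37 ends (62.2%) were called. On 8p the lines had mean log2 folds of 1.31 in HCT15, 1.63 in DU145 and -0.15 in PC3. The permutation test gave 8p an adjusted p of 0.00816. On 8q they were 2.88, 3.198 and 3.92, with the same adjusted p. On 1q PC3 stood at 0.90 and HCT15 at -0.19. On 19p PC3 was low, with 3.15, 3.36 and 2.44, and on 9p HCT15 was high, with -0.05, -0.69 and -0.66. Without MethylMiner 22 of the 23 ends remained called, all but 6p, and without MethylMagnet 18 of the 23 and 28 of the 31 ends called between kits did. Relative to the MethylMiner library of the same line, a setting added after the data were seen, none of the 37 ends was called by the exact permutation test, with 11 at an unadjusted p under 0.05 and a lowest adjusted p of 0.114.

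These differences between lines went with read depth and less with methylation. The difference of PC3 from HCT15 in the mean of the 4 other kits had, over 37 ends, a Pearson r of 0.91 with that of MethylMiner and of 0.88 with the ratio of RRBS coverage, and 0.26 with the difference in RRBS methylation. For PC3 and DU145 the values were 0.91, 0.91 and 0.15, and for DU145 and HCT15 0.81, 0.69 and 0.34. MethylMiner and RRBS coverage, which come from separate libraries, had an r of 0.99 for PC3 and DU145, 0.90 for PC3 and HCT15 and 0.77 for DU145 and HCT15. The points share the libraries of a line, and no p is given. On 8p the difference of PC3 from HCT15 was -1.47 in log2 depth over 5 kits and -1.36 with MethylMiner alone, and its relative RRBS coverage was 0.565 against 1.43. On 8q the differences were 1.04 and 1.30, with a relative coverage of 2.07 against 1. Line differences in the depth of whole ends and the copy number of these ends cannot be told apart here, and input DNA was not analysed here.

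**Figure D5:**
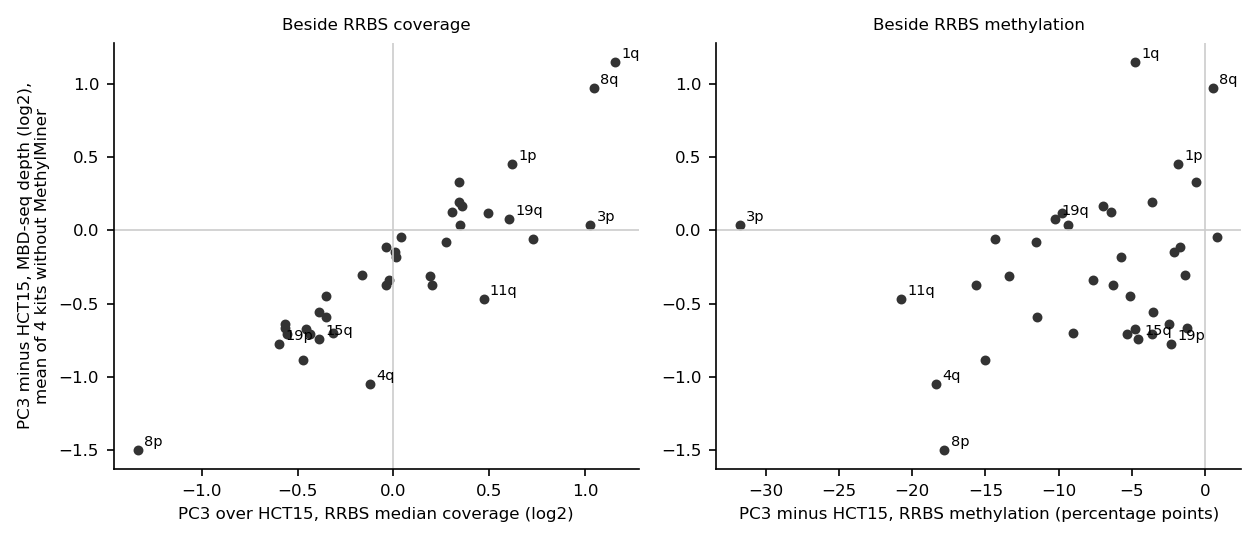
Each point is 1 of 37 chromosome ends. The vertical axis is the difference of PC3 from HCT15 in MBD-seq depth (log2, mean of 4 kits without MethylMiner), beside the log2 ratio of RRBS median coverage (left) and the difference in RRBS methylation in percentage points (right). The points follow the coverage (r of 0.88) and spread widely over methylation (r of 0.26), with 8p at the low and 8q and 1q at the high extreme of depth.

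At single CpGs, depth rose steeply with methylation with 4 kits and hardly with MethylMiner. Members at least 80% methylated in a line were compared with members at most 20% methylated in the same line. With MethylCollector the ratio of their mean depths was 20.6 in HCT15, 11.7 in DU145 and 14.2 in PC3. It was 17.0, 6.16 and 10.6 with MethylCollector Ultra and 13.9, 5.90 and 11.0 with MethylMagnet. MethylCap gave 13.9, 11.5 and 10.4, the narrowest range among these 4 kits. MethylMiner gave 1.16, 1.15 and 0.937. These ratios pool members of all CpG densities. Within classes of CpG density the depth of MethylMiner was higher at methylated members in 15 of 15 combinations of class and line, by ratios of 1.08 to 1.499. It was higher in 15 of 15 with both MethylCollector kits and MethylCap, and in 14 of 15 with MethylMagnet. The exception was HCT15 at 1 to 4 CpGs, with 1.02-fold at methylated and 2.48-fold at unmethylated members. Kits accounted for 92.3% of the variation in the pooled ratio on the log2 scale, with an exact permutation p of 0.00549. Among the 4 kits other than MethylMiner they accounted for 23.5%, with an exact permutation p of 0.137, so a difference among these was not shown. Leaving HCT15 out gave 95.6% and an exact permutation p of 0.0833. The DU145 libraries of MethylMagnet and both MethylCollector kits, which had the lowest ratios of their kits, were also the shallowest, with 10040 to 30336 fragments. The part of depth in these ratios was not tested.

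How much depth a methylated CpG drew depended on the CpGs around it and on the kit. At members at least 80% methylated with 1 to 4 reference CpGs within 100 bp, the fold over the library mean was 4.94 to 6.81 with MethylCap, 2.44 to 2.88 with MethylMiner, and 1.02 to 3.05 with the other kits. At 20 or more CpGs it was 264 to 290 with MethylMagnet, 137 to 170 with MethylCollector, 58.6 to 85.1 with MethylCollector Ultra, 13.9 to 22.9 with MethylCap and 2.79 to 5.81 with MethylMiner. MethylMagnet thus had the steepest rise and MethylMiner the flattest. At members at most 20% methylated in that densest class, MethylCap had 0.509 in HCT15, 1.03 in DU145 and 1.04 in PC3. MethylMagnet had 5.17, 11.5 and 5.77. MethylMiner had 2.50, 3.57 and 4.89 there, beside 2.79, 5.34 and 5.81 at methylated CpGs.

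With MethylMagnet and both MethylCollector kits the depth of 4q came mostly from a single place. The region chr4:190942277-190944276 is 2000 bp long and lies 210000 bases from the end and 1246 bp from FRG2, a gene of the 4q multicopy families. It holds 167 reference CpGs, or 83.5 per kb, at 68.8% GC, and 37 of them stand in the stretch printed above. Its 31 members averaged 82.2% methylation in HCT15, 65.6% in DU145 and 56.5% in PC3, at a median coverage of 89, 176 and 90. The region held 70.8 to 88.2% of the 4q depth in the libraries of MethylMagnet and both MethylCollector kits, 40.3 to 48.2% with MethylCap and 9.42 to 20.4% with MethylMiner. Without it, the fold of 4q with MethylMagnet was 0.966 in HCT15 instead of 8.18, 0.948 in DU145 instead of 4.04 and 0.642 in PC3 instead of 4.52. Part of it was the window of 1000 bp with the most depth of all ends in 13 of 15 libraries, at up to 7982-fold the mean of the MethylMagnet library of HCT15. In the MethylMiner libraries of DU145 and PC3 the place was taken by chr18:108001-109000 of 18p, 34456 bp from TUBB8B, at 146 and 127-fold.

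At promoters called lower in RRBS in a prostate line than in HCT15, the capture depth was mostly lower too with 4 kits. At the 16 lower in PC3 than in DU145 the counts did not show this, with many equal for some kits. The rate at promoters not called is not given, so the counts do not test agreement with RRBS. A shallow library can read 0 at a promoter whatever its methylation. The MethylMagnet library of DU145 held 10040 fragments and that of HCT15 59972, with 29613 and 265628 for MethylCollector. Of the 114 promoters lower in DU145 than in HCT15, depth per library total was lower in DU145 at 98 with MethylCollector, 91 with MethylCollector Ultra, 90 with MethylCap and 72 with MethylMagnet, where 32 more were equal. With MethylMiner it was lower at 44. Of the 113 promoters lower in PC3, depth was lower at 103 with MethylCollector Ultra, 92 with MethylCollector, 86 with MethylCap, 73 with MethylMagnet (28 equal) and 38 with MethylMiner. Of the 16 promoters lower in PC3 than in DU145, depth was lower at 8 with MethylCap and 5 with MethylMiner. It was lower at 5 with MethylCollector Ultra (4 equal), 4 with MethylCollector (8 equal) and 3 with MethylMagnet (7 equal). The mean folds of PC3 and DU145 there were 16.3 and 44.7 with MethylMagnet and 27.8 and 55.1 with MethylCollector. They were 13.0 and 29.1 with MethylCollector Ultra, 7.38 and 7.54 with MethylCap, and 4.60 and 2.82 with MethylMiner. Of the 16 higher in PC3 than in DU145, depth was higher at 14 with MethylCollector, 12 with MethylMagnet, 11 with MethylCap, 9 with MethylCollector Ultra and 8 with MethylMiner. Of the 6 higher in DU145 than in HCT15, depth was higher at 5 with MethylCap and 3 with MethylMiner. It was higher at 2 with MethylCollector Ultra (2 equal), 1 with MethylCollector (2 equal) and 0 with MethylMagnet (3 equal). At the 10q window beside BNIP3, printed above, HCT15 had 115-fold depth with MethylMagnet, 59.3 with MethylCollector, 13.9 with MethylCollector Ultra and 2.35 with MethylCap, and DU145 and PC3 were listed at 0 with these 4 kits. MethylMiner had the opposite order, with 0 in HCT15, 1.77 in DU145 and 6.89 in PC3. At the 16q window PC3 had 91.5, 183, 15.2 and 8.74-fold in the same order of kits, and HCT15 45.5, 9.58, 3.71 and 0.588-fold, so all 4 kits were higher in PC3. DU145, 92.0% methylated there, had 188-fold with MethylCollector and 24.2 with MethylCap and was listed at 0 with the other pair. At the 17q window, 98.4% methylated in DU145, that line was listed at 0 with MethylMagnet, MethylCollector and MethylCap. The HCT15 libraries of all 4 kits had the same mean depth of 0.157 at the 16q window. Whether this was a fragment shared between them was not tested. Depths in 300 bp windows come from few fragments and have no replicate within a line.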

How the data were processed

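MBD-seq of 15 libraries and RRBS of 3 libraries were analysed. For MBD-seq the deposited files hold the coverage signal, the number of fragments over each base, which the authors made by mapping read pairs with Bowtie to hg19 (both named in the submitters' processing notes), keeping unique pairs close together and collapsing duplicates, with no scaling. The RRBS files as deposited give, per CpG, the methylated count and the total read count with both strands summed, made by a provider's pipeline. Its aligner was not given in the sources used here, and the lowest coverage was 6.

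RRBS rows that were not on a CpG of the reference were dropped (1054, 1922 and 646 in HCT15, DU145 and PC3). Methylation is the percentage of methylated reads per CpG, and means are over CpGs. With 1 library per line no p-value was computed, and a difference of 30 percentage points was called. MBD-seq depth was divided by the library mean over the reference bases that are not N. Kits were compared by exact permutation within cell lines and lines within kits, with Benjamini-Hochberg adjustment over the 37 ends and 0.5 fragments added per end. Within-line permutation is the replicate block, and MBD-seq labels that share a replicate number share a cell line and its DNA.

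Genes came from GENCODE 44 on GRCh37. Named promoters were, per pair of lines and direction, the 4 with the largest difference and at least 8 CpGs, and named ends the 3 lowest and highest. Some windows are not reported here. The members and the gene lists were chosen with earlier results of these data known. Alternatives covered coverage, end size, thresholds, scaling and left-out libraries. Those without CpGs inside CCGG and relative to MethylMiner, and the comparison of shared fragments, were added after the data were seen. The software was matplotlib 3.10.9, numba 0.67.0, scipy 1.17.1, pandas 2.3.3 and numpy 2.4.6 under Python 3.11.15, and the code was tested on simulated data. The libraries held 10040 to 7344098 fragments. Percentages of fragments in the ends had 95% Wilson intervals from 4.44 to 4.47% in the deepest library to 13.9 to 15.2% in the shallowest, which cover counting error only.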

Additional observations from a re-analysis of the deposited data

Results flagged for a closer look

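Among 6 groups of 5 libraries tested for a library far from the others, 2 stood out. The 5 libraries of a group are of 5 kits and not replicates, so a rate of flags by chance does not apply. Both were the log2 ratio of depth at methylated over unmethylated subtelomeric CpGs, with MethylMiner lowest. In HCT15 its log2 ratio was 0.21 and the other kits had 3.79 to 4.37, so the gap took 0.86248 of the range. In PC3 its log2 ratio was -0.09 and the others had 3.38 to 3.83, a gap of 0.88501 of the range. MethylMiner was also lowest in DU145, with 0.21 against 2.56 to 3.55, and this was not flagged. The cause was not tested.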

How the results depend on the processing

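Of 107 alternative settings over 16 results, 72 left the value within its limits, 28 moved it, 4 took it past the threshold and 3 took it back. A reversal of direction was not looked for. The order of HCT15 and DU145 did change with ends of 5 Mb, where DU145 had the higher mean, whereas HCT15 had it in the main setting. The subtelomeric means of HCT15, DU145 and PC3 were 66.1, 66.1 and 61.0% at a minimum coverage of 10, 53.3, 51.7 and 47.6% at 50, 63.4, 63.8 and 57.7% with ends of 5 Mb, 56.5, 55.2 and 50.3% without CpGs inside CCGG, and 58.6, 57.5 and 53.02% with reads pooled. With ends of 1 Mb HCT15 had 62.9% and DU145 62.4%. At 20 points, 10.1% of members were higher in DU145 than in HCT15, 6.89% in PC3 than in HCT15 and 5.62% in PC3 than in DU145. At 50 points the shares were 2.64% higher and 4.81% lower in DU145 than in HCT15, 1.76% and 6.72% for PC3 and HCT15, and 1.69% and 4.58% for PC3 and DU145.

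The difference in subtelomeric depth between lines passed the threshold with the library total over chromosomes 1 to 20 (2.53% of the variation, exact permutation p 0.0494), with ends of 1 Mb (1.95%, p 0.0363), with 5 Mb (3.58%, p 0.0278) and without MethylMiner (15.9%, p 0.0324). Ends called between kits fell to 17 without MethylMiner, and ends called between lines to 0 relative to MethylMiner (11 at an unadjusted p under 0.05). The kit difference in the ratio of methylated to unmethylated CpGs was 23.5% without MethylMiner (p 0.137) and 89.3 to 97.5% when each line was left out (exact permutation p 0.025 to 0.0833). Without the replicate block the kit tests gave 94.7% with an exact permutation p of 0.000238 and 92.3% with one of 0.00556, and the ends called between kits fell from 31 to 26. Where a cause is not given by the setting itself, the cause was not tested. The shallow DU145 libraries limit single windows and promoters most.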
